A study of Homo sapiens with 12 samples.

Results

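Imr90 cells, human lung fibroblasts that divide a limited number of times in culture, were compared here between late passage at 3% oxygen and early passage at 20% oxygen, the level of a standard incubator. The 6 arrays compared were chosen by their labels: 3 of old but nonsenescent cells at population doubling 53 and 3% oxygen, and 3 of young cells at population doubling 30 and 20% oxygen. They belong to a series of 12 arrays in 4 groups. The other groups are used for values set beside these: young cells at population doubling 30 and 3% oxygen, and senescent cells at population doubling 48 and 20% oxygen. All groups were the same line, grown in the same medium with serum and collected before confluence. Each oxygen level had an incubator of its own. Oxygen, incubator and the number of doublings all differ between old 3% and young 20% cells, and their effects cannot be told apart in this comparison. The labels call the 3 arrays of a group biological replicates and say no more, so the p-values measure the spread between these arrays, which may be technical.

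Each value is a relative log2 signal, the deposited value of a probe set (the short probes that read 1 transcript) centred on its median over the 12 arrays and averaged over the probe sets of a gene. A value of 0 is the middle of the 12 arrays and not the absence of RNA, and the levels of different genes cannot be set against each other. Changes are old 3% minus young 20% on the log2 scale, ± the standard error, with n = 3 arrays per group, a number that limits the precision. A gene was called higher or lower at a Benjamini-Hochberg adjusted p under 0.05 in limma, over all 19775 genes tested. Gene lists are described by the number of members called and by their median change, beside the same for all genes, whose median change was 0.02. Where counts at an unadjusted p are added, the share of all genes at that threshold is not given. Those counts cannot be set against the shares at the adjusted p. Because the values are centred, whether the markers of fibroblasts or of any other cell type are present cannot be read from them.

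In mitosis genes the young 20% arrays lay near the senescent ones, which touches every comparison with them. The mean over 54 mitosis genes was 1.27, 1.07 and 0.99 on the old 3% arrays, 0.80, 0.68 and 0.78 on the young 3% arrays, -0.77, -0.90 and -0.88 on the senescent arrays and -1.05, -0.91 and -0.92 on the young 20% arrays. The rate of division of the cells was not analysed here. Values for old 3% minus young 3% cells, which leave the young 20% arrays out of the difference, are therefore given toward the end for the largest gene groups and for single genes.

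Hypoxia-inducible factors are transcription factors whose alpha subunits are hydroxylated by oxygen-dependent enzymes and then degraded, so that they build up when oxygen is low. They bind short sites in the promoters of genes for glucose uptake, glycolysis, mitophagy and vessel growth. Genes needed for mitosis are transcribed in a burst late in the cell cycle and are shut off in cells that stop dividing. In fibroblasts that reach replicative senescence, lamin B1 is lost, CDK inhibitors rise, and inflammatory factors and proteases are often secreted.

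The promoters of 5 genes, picked by the size of their rise, are shown with the short motifs that these programs are known for. For a gene with several starts, the window with the most matches is shown. They are RefSeq sequences on GRCh38.p14, from 250 bases before to 50 bases after the annotated start, on the plus strand. In DDIT4 (chr10:72273674-72273973), ENO2 (chr12:6914330-6914629) and MXI1 (chr10:110209981-110210280), the hypoxia or glycolysis genes that rose most among those with a promoter in the table, capitals mark ACGTG or GCGTG on either strand, the core letters bound by hypoxia-inducible factors. In NDC80 (chr18:2571307-2571606) and KIF20A (chr5:138178862-138179161), the mitosis genes that rose most, capitals mark CCAAT, the letters bound by NF-Y, or TTTGAA, the core of the cell cycle homology region, on either strand.
DDIT4: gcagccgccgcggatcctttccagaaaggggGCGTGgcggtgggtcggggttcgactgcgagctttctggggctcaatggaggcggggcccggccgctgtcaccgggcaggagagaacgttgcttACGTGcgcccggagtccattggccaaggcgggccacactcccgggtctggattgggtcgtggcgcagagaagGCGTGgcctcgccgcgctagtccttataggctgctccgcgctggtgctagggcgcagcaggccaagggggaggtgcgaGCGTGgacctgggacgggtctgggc
ENO2: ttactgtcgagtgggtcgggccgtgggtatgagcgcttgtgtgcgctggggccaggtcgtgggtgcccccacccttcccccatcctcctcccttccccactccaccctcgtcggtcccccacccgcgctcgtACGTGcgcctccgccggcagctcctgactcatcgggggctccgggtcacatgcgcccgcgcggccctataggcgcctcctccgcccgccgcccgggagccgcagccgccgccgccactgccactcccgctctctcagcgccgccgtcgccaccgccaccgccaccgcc
MXI1: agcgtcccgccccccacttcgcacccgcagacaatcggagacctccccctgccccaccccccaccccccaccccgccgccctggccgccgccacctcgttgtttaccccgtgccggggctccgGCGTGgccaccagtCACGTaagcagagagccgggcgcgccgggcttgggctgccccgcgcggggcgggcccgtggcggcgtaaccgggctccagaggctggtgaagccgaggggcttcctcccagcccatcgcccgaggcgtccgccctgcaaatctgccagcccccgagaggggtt
NDC80: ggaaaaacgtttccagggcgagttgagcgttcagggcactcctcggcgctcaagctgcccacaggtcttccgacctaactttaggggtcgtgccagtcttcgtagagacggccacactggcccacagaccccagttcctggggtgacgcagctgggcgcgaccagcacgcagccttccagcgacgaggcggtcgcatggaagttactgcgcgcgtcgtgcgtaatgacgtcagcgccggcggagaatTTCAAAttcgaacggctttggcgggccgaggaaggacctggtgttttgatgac
KIF20A: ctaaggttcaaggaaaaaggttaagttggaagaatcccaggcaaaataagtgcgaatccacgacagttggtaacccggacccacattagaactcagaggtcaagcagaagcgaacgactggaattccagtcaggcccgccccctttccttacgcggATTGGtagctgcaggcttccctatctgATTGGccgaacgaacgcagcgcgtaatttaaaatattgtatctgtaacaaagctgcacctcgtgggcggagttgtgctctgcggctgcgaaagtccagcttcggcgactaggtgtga

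The DDIT4 window held 4 matches to the hypoxia core, the ENO2 window 1, and the MXI1 window shown, picked from 3 of that gene for its matches, held 2. Not marked are 2 matches to the NF-Y letters in the DDIT4 window and 1 to the hypoxia core in the NDC80 window. The NDC80 window held 1 match to the cell cycle core and none to the NF-Y letters, and the KIF20A window held 2 to the NF-Y letters and none to the cell cycle core. The hypoxia core stood in 36 of 42 promoter windows of the hypoxia targets (85.7%) and in 23 of 37 of the glycolysis genes (62.2%), and also in 36 of 59 of the mitosis genes (61.0%), against 55.0% of the windows of all genes tested and 48.4% of all windows in the table. The NF-Y letters stood in 42 of the 59 windows of the mitosis genes (71.2%), against 34.5% for all genes tested and 34.6% for the table. The cell cycle core stood in 39 of those 59 windows (66.1%), against 12.3% and 15.2%. The hypoxia and glycolysis lists share no gene with the mitosis list. A match is a string of letters and was not tested for binding.

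In old 3% cells 2622 genes differed from young 20% cells, 13.3% of the 19775 tested. Of these, 1277 were higher (6.46%) and 1345 lower (6.80%), with 305 higher and 293 lower by at least 2-fold. Replicates of the groups did not overlap for 2609 of the called genes. A call already favours genes whose replicates lie apart, and the share without overlap over all genes is not given here, so this count adds no support. The largest rise was that of LINC01116, a long noncoding RNA, which stood at 2.46, 2.29 and 2.62 on the old 3% arrays, against -2.62, -2.23 and -2.06 on the young 20% arrays, 27.1-fold higher (adjusted p = 8.74e-10). The largest fall was that of VCAM1, the adhesion molecule that leukocytes bind on activated cells, at -2.83, -3.16 and -3.21 in old 3% cells and 2.23, 2.23 and 2.41 in young 20% cells, 40.9-fold lower (adjusted p = 3.58e-10). Of the 15 largest rises, 8 belong to the mitosis list described here, and of the 15 largest falls, 4 belong to the list of inflammatory factors.

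**Figure D1:**
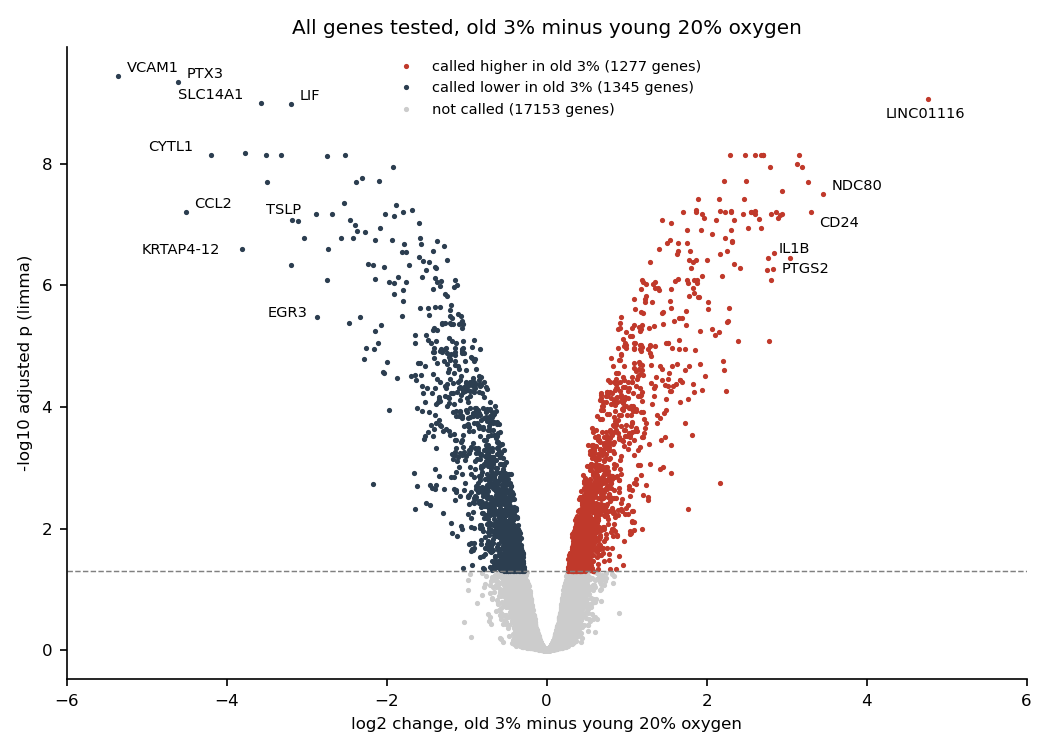
Each point is 1 of 19775 genes, with its log2 change (old 3% minus young 20%) across and -log10 of the limma adjusted p up; the dashed line is an adjusted p of 0.05. LINC01116 lies far to the right at 4.76, and VCAM1 and PTX3 far to the left at -5.35 and -4.61.

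**Figure D2:**
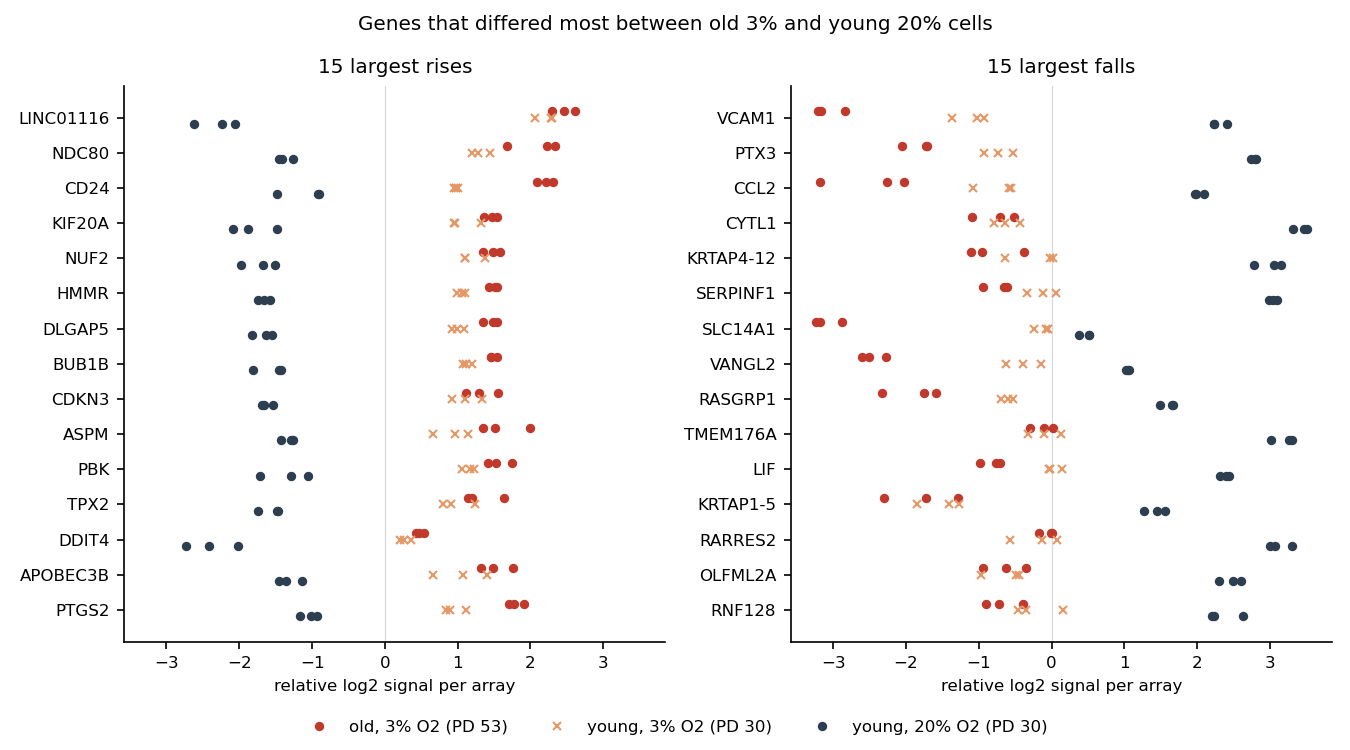
Relative log2 signal on each array for the 15 genes that rose most (left) and the 15 that fell most (right); circles are old 3% and young 20% arrays and crosses the young 3% arrays. Old 3% and young 20% arrays do not overlap for any of the 30 genes, which their choice required, and the young 3% arrays lie near old 3% for most of the rises and between the groups for genes such as VCAM1 and VANGL2.

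Mitosis genes were the most uniform group. Of 54 measured, 53 were higher in old 3% cells and none lower, with INCENP, the scaffold of the chromosomal passenger complex, the exception that was not called (called without old 3% array 3, adjusted p = 0.0229); no member was lower at an unadjusted p under 0.05 in limma either. The median change was 2.25. These are bulk samples, in which fewer dividing cells and less of each RNA per cell cannot be told apart.

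At the kinetochore, where chromosomes attach to microtubules, NDC80 and NUF2 are partners in the complex that grips the microtubule. NDC80 read 2.34, 2.23 and 1.68 on the old 3% arrays and -1.41, -1.46 and -1.26 on the young 20% arrays, a rise of 3.46 ± 0.16 (11.0-fold, adjusted p = 3.11e-08). NUF2 read 1.58, 1.49 and 1.34 in old 3% cells and -1.98, -1.51 and -1.67 in young 20% cells (9.13-fold). BUB1B, the checkpoint protein that holds back anaphase until all chromosomes are attached, read 1.46, 1.46 and 1.54 in old 3% cells and -1.80, -1.43 and -1.45 in young 20% cells (8.27-fold). The lowest old 3% array lay more than 2 log2 units above the highest young 20% array for each of these 3 genes.

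On the spindle, the microtubule proteins HMMR and DLGAP5 were 8.90-fold and 8.76-fold higher, and TPX2, which activates Aurora A kinase, was 7.41-fold higher. ASPM, which works at the spindle poles, was 7.70-fold higher, and its 3 probe sets gave changes between 2.44 and 3.96. KIF20A, a kinesin needed for the cells to split, read 1.54, 1.36 and 1.47 in old 3% cells, against -2.09, -1.48 and -1.88 in young 20% cells (3.27 ± 0.15, 9.66-fold). CCNA2, the cyclin of S phase and G2, rose 4.93-fold and the proliferation marker MKI67 3.57-fold (1.83 ± 0.14, adjusted p = 1.11e-06). Changes ran between 0.762 and 2.325 over the 4 probe sets of MKI67. PBK, a kinase active in mitosis, was 7.58-fold higher, and APOBEC3B, a cytidine deaminase that edits DNA, 7.17-fold higher.

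**Figure D3:**
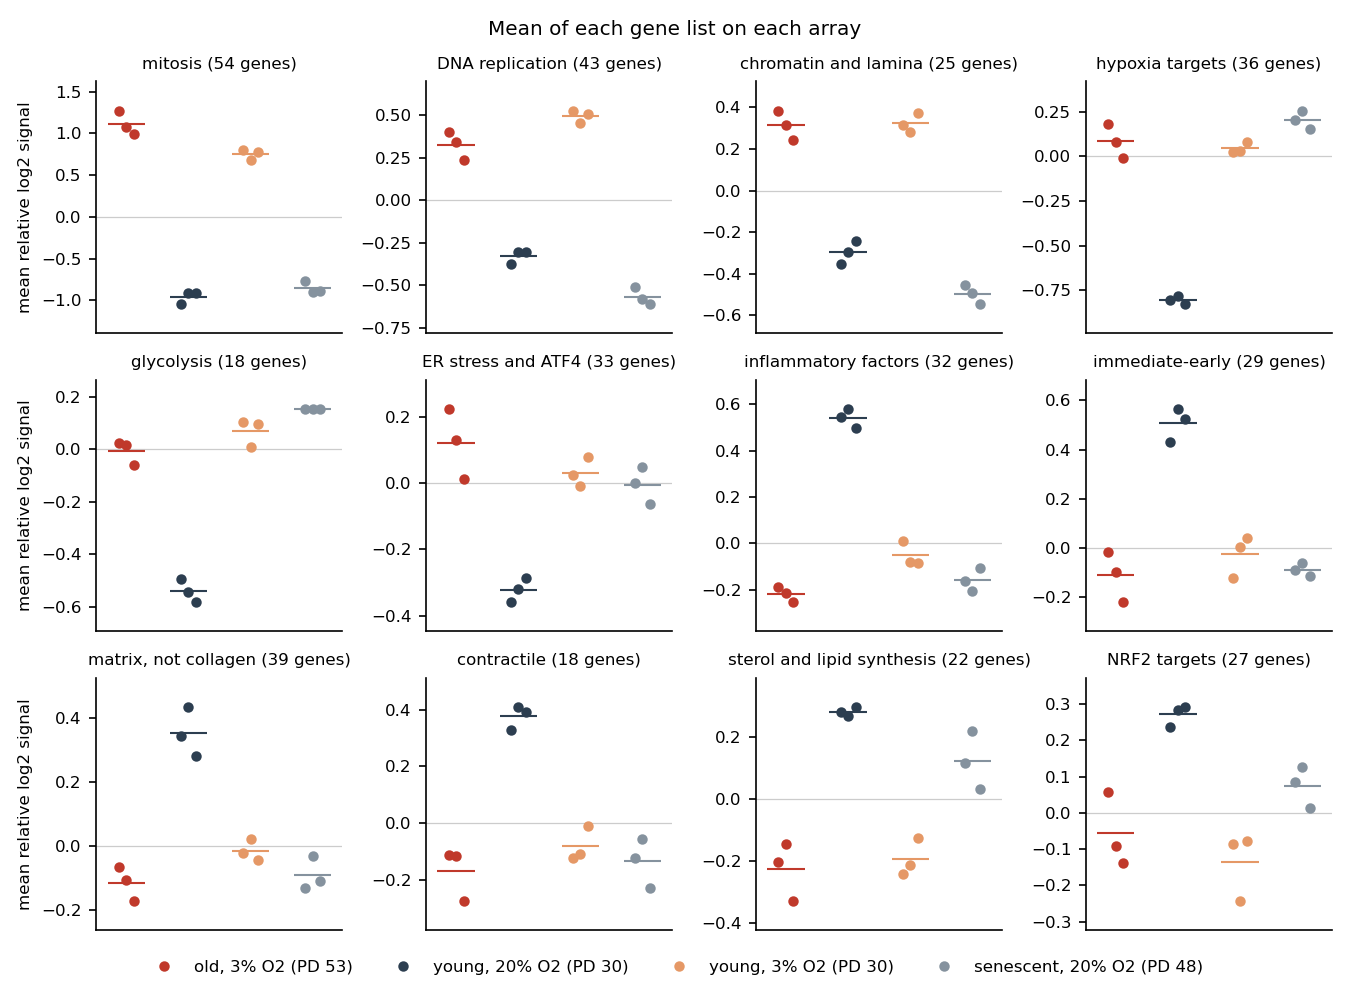
Mean relative log2 signal of 12 gene lists on each of the 12 arrays, with a bar at each group mean (n = 3); the vertical scales differ between panels. In the mitosis panel young 20% and senescent arrays lie together near -0.9, and in the hypoxia, glycolysis, contractile and matrix panels the young 20% arrays lie apart from all other groups.

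Genes of DNA replication rose less steeply. Of 43 measured, 29 were higher and none lower (1 was lower at an unadjusted p under 0.05), with a median change of 0.61. The ribonucleotide reductase subunits RRM2 and RRM1, which make deoxynucleotides, rose 3.49-fold and 2.25-fold, and the enzymes of thymidine supply TK1 and TYMS 2.71-fold and 2.30-fold. POLE2, a subunit of the leading-strand polymerase, rose 3.16-fold, and GINS1, part of the replicative helicase, 2.94-fold. MCM6, a subunit of the same helicase, did not follow. It read 0.18, -0.21 and -0.03 on the old 3% arrays, against -0.20, 0.17 and -0.02 on the young 20% arrays, a difference of 0.00 ± 0.12 (adjusted p = 0.993, 95% interval -0.27 to 0.26). The young 3% arrays read 0.79, 0.76 and 0.76, above both groups, and its 2 probe sets gave changes between -0.50 and 0.49 for old 3% minus young 20%.

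Genes of repair by recombination were mostly higher too. Of 18 measured genes of recombination and the Fanconi pathway, 11 were higher and 1, the BRCA2 partner PALB2, lower (-0.46 ± 0.13, not called without old 3% array 2 or 3 or young 20% array 2, adjusted p between 0.108 and 0.139); the median was 0.72. The nuclease EXO1 rose 3.33-fold and the helicase BRIP1 2.35-fold. The translocase RAD54B rose 2.26-fold, FANCI, which is ubiquitinated at crosslinks, 2.09-fold, and the helicase BLM 1.97-fold. Over the 3 probe sets of FANCI the changes ran between 0.35 and 1.53.

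Chromatin and lamina genes that are known to decline in senescent fibroblasts were higher in the late-passage cells. Of 25 measured, 13 were higher and none lower, at an adjusted or an unadjusted p under 0.05 in limma, with a median of 0.43. LMNB1, lamin B1 of the nuclear envelope, read 0.93, 0.97 and 1.12 on the old 3% arrays, against -0.89, -0.87 and -0.72 on the young 20% arrays (1.83 ± 0.12, 3.56-fold, adjusted p = 4.08e-07). The histone variant H2AZ1 rose 2.94-fold, the Polycomb methyltransferase EZH2 2.47-fold, the chromatin protein DEK 2.28-fold and HMGB3 2.46-fold. For HMGB2, a DNA-bending protein, the mean rise was 1.17, but its 2 probe sets gave 0.11 and 2.24.

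The CDK inhibitors that mark senescence were not called higher in the late-passage cells. CDKN1A (p21) read 0.22, 0.02 and -0.12 on the old 3% arrays and 0.01, -0.01 and -0.16 on the young 20% arrays, a difference of 0.09 ± 0.11 (adjusted p = 0.79, 95% interval -0.15 to 0.33), and the groups overlapped. CDKN2A (p16 and ARF) read -0.27, -0.49 and -0.83 in old 3% cells, against 0.12, 0.15 and 0.22 in young 20% cells. It fell by 0.69 (SE 0.13, adjusted p = 0.00301), with changes between -1.13 and 0.08 over its 3 probe sets. CDKN2B (p15) fell by 1.47, but 1 of its 2 probe sets carried the fall (changes of -2.91 and -0.04). CDKN1B (p27), an inhibitor of quiescent cells, rose by 0.71 ± 0.12 (adjusted p = 0.00136). CDKN3, a phosphatase that acts on CDK2 and is itself made with the mitosis genes, rose 7.70-fold.

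Of 24 targets of p53 measured, 2 were higher and 4 lower, with a median of -0.04. DDB2, a sensor of damaged DNA, rose 2.91-fold. GADD45A, a stress-induced inhibitor of growth, fell 2.58-fold, and ZMAT3 and AEN fell by 0.57 and 0.50 on the log2 scale. Over the 5 probe sets of ZMAT3 the changes ran between -0.85 and 0.16.

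Targets of the hypoxia-inducible factors were higher in old 3% cells, 27 of 36 measured, and none was lower at an adjusted or an unadjusted p under 0.05 in limma. Their median change was 0.81. On the arrays, the list mean was 0.18, 0.08 and -0.01 in old 3% cells and -0.80, -0.78 and -0.83 in young 20% cells, without overlap. The senescent arrays, also at 20% oxygen, had list means of 0.20, 0.26 and 0.15, near or above those of old 3% cells, so the groups at 20% oxygen did not lie together. DDIT4, which restrains mTORC1 when oxygen or energy is short, read 0.54, 0.42 and 0.47 on the old 3% arrays, against -2.42, -2.01 and -2.73 on the young 20% arrays (7.27-fold, adjusted p = 6.27e-08). Its promoter held the most matches of the 3 hypoxia promoters shown, and a part of these matches in the rise was not tested. NDRG1, a stress-responsive cytoplasmic protein, rose 6.43-fold, and the MYC antagonist MXI1 3.72-fold.

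BNIP3, a receptor that sends mitochondria to autophagy, read -0.03, -0.04 and -0.19 in old 3% cells and -1.79, -2.06 and -2.03 in young 20% cells (3.66-fold), and 0.36, 0.41 and 0.45 in senescent cells. The leucine zipper factor NFIL3 rose 3.23-fold and ERO1A, the oxidase that makes disulfide bonds in the endoplasmic reticulum, 2.71-fold. VEGFA, the vessel growth factor, rose little, by 0.44 ± 0.12 (1.36-fold, adjusted p = 0.0209, not called without old 3% array 1 or 2 or young 20% array 1 or 2, adjusted p between 0.0811 and 0.0905).

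Of 10 genes that sense oxygen or form the factors themselves, only the prolyl hydroxylases EGLN3 and EGLN1 were called; both are known targets of the factors they mark for degradation and stand in the hypoxia target list too. EGLN3 read 1.20, 0.95 and 0.82 on the old 3% arrays, 0.03, 0.07 and 0.00 on the young 3% arrays and -0.26, -0.16 and -0.64 on the young 20% arrays, a rise of 1.35 ± 0.15 over young 20% cells. EGLN1 rose by 0.87 ± 0.14, with changes between -0.03 and 1.61 over its 4 probe sets. The subunit genes HIF1A (-0.20 ± 0.09, adjusted p = 0.197) and EPAS1 (-0.12 ± 0.10, adjusted p = 0.633) were not called; no gene of the list was called lower in limma, and 2 were lower at an unadjusted p under 0.05.

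Glycolysis genes rose with them. Of 18 measured, 12 were higher and 1, the hexokinase HK2, lower (-0.54 ± 0.10), with a median of 0.45. ENO2, the neuronal-type enolase, read 0.01, -0.01 and -0.11 on the old 3% arrays, against -1.90, -1.94 and -2.04 on the young 20% arrays (3.80-fold). The ubiquitous enolase ENO1 rose 1.80-fold, with changes between 0.05 and 1.25 over its 4 probe sets. The glucose transporters SLC2A1 and SLC2A3 rose 2.31-fold and 1.68-fold, phosphoglycerate kinase PGK1 2.13-fold and triosephosphate isomerase TPI1 1.63-fold. The list mean was 0.03, 0.02 and -0.06 on the old 3% arrays, 0.15, 0.15 and 0.15 on the senescent arrays and -0.50, -0.54 and -0.58 on the young 20% arrays.

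**Figure D4:**
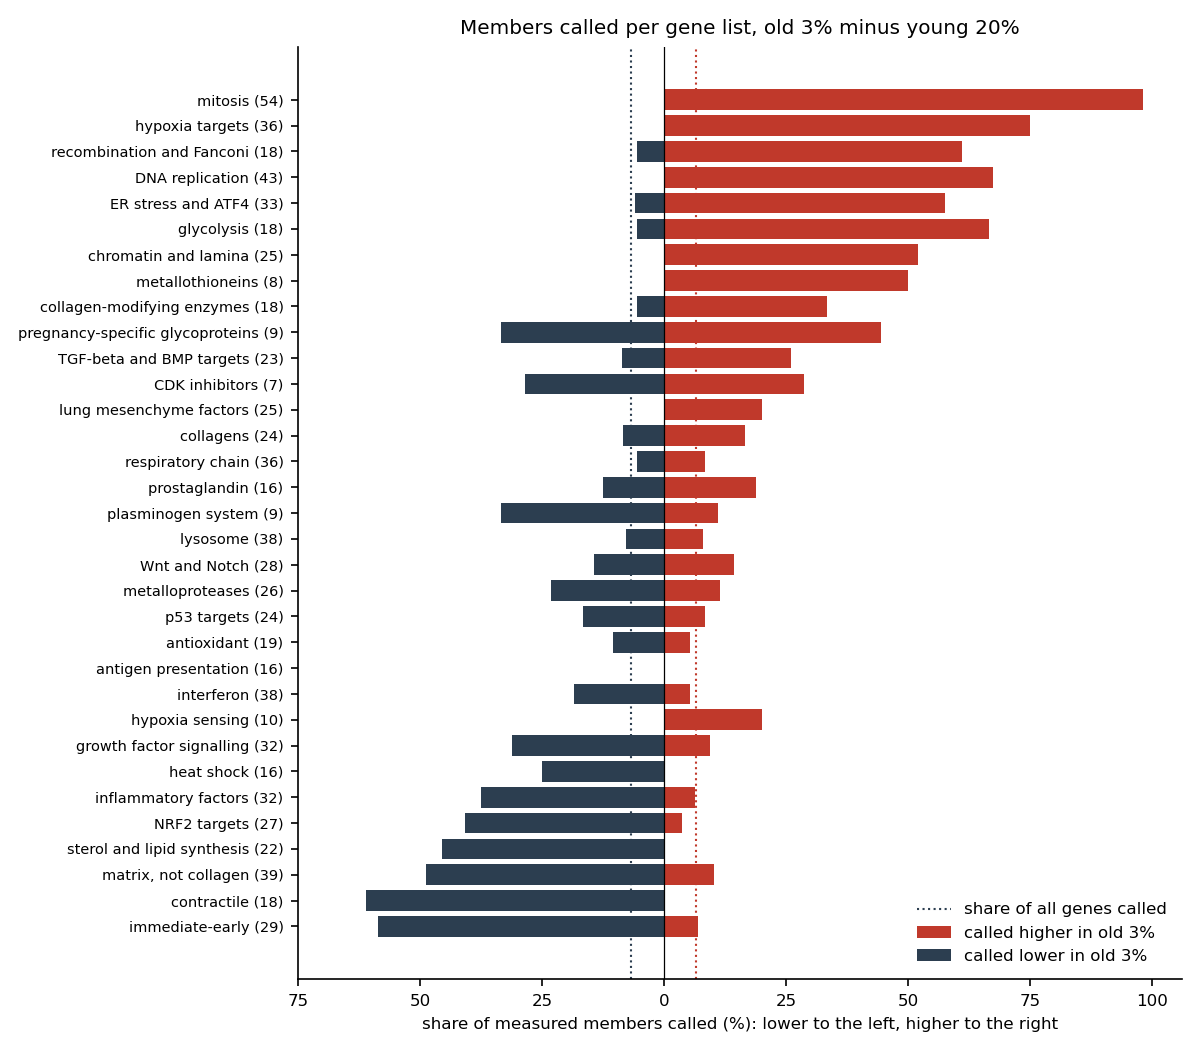
Share of the measured members of each list called higher (bars to the right) or lower (bars to the left) in old 3% cells, with the number measured in brackets, lists ordered by median change; dotted lines mark the shares over all genes, 6.46% higher and 6.80% lower. Mitosis and hypoxia targets stand at the top and immediate-early, contractile and matrix genes at the bottom.

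Inflammatory factors and the adhesion molecules induced with them held some of the deepest falls. Of 32 measured, 12 were lower and 2 higher, with a median of -0.22. The list mean was -0.16 on the senescent arrays, nearer to old 3% cells (-0.22) than to young 20% cells (0.54). For PTX3 and CCL2 the senescent means, 0.67 and 0.62, lay between those groups. PTX3, a secreted pattern recognition protein, read -1.73, -1.71 and -2.05 on the old 3% arrays, against 2.79, 2.81 and 2.74 on the young 20% arrays (24.4-fold lower, adjusted p = 4.55e-10). CCL2, the chemokine that draws monocytes, read -2.03, -2.26 and -3.18 in old 3% cells and 1.99, 1.97 and 2.09 in young 20% cells (22.7-fold lower, adjusted p = 6.27e-08). The 3 young 20% arrays lay close together for both genes, and the old 3% arrays of CCL2 spread over about 1 log2 unit. The cytokine LIF was 9.17-fold lower and TSLP, an alarmin of epithelia and fibroblasts, 7.39-fold lower.

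Against this, IL1B, the interleukin that sets off much of that program, was higher: it read 2.25, 1.89 and 1.65 in old 3% cells, against -0.86, -0.64 and -1.02 in young 20% cells (6.82-fold, adjusted p = 3.49e-07). IL24, a cytokine of the IL-10 family, rose 4.57-fold. PTGS2, the inducible cyclooxygenase that starts prostaglandin synthesis, read 1.91, 1.71 and 1.77 in old 3% cells and -0.93, -1.01 and -1.17 in young 20% cells (7.13-fold, adjusted p = 5.35e-07). Of the 16 prostaglandin genes measured, 3 were higher and 2 lower, the receptors PTGER4 and PTGER2. Beside PTGS2 the higher ones were PTGES3 and the constitutive cyclooxygenase PTGS1 (not called without old 3% array 1 or young 20% array 3, adjusted p between 0.0683 and 0.0726); the probe sets of PTGER4 disagreed, at -2.43 and 0.32. IL6 read 0.22, 0.09 and 0.01 in old 3% cells and 0.09, 0.12 and 0.08 in young 20% cells, a difference of 0.01 ± 0.12 (adjusted p = 0.988, 95% interval -0.26 to 0.27). For the neutrophil chemokine CXCL8 the difference was -0.20 ± 0.11 (adjusted p = 0.331, 95% interval -0.44 to 0.03).

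Of 38 interferon-stimulated genes 2 were higher and 7 lower, with a median of -0.06. SAMD9, an antiviral protein, rose 3.36-fold, and IFIT3 by 0.41 ± 0.11 (not called without old 3% array 1 or young 20% array 1, 2 or 3, adjusted p between 0.0639 and 0.12). The membrane proteins that block virus entry fell: IFITM1 2.20-fold, IFITM2 1.94-fold and IFITM3 1.74-fold; they are close relatives whose probe sets may read each other. GBP2, a guanylate-binding protein, fell 1.77-fold. None of 16 genes of antigen presentation was called in limma, and 2 were lower and none higher at an unadjusted p under 0.05.

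Immediate-early genes, which serum and growth factors switch on within minutes, were mostly lower: 17 of 29 fell and 2 rose, with a median of -0.55. The list mean was -0.09 on the senescent arrays, nearer to old 3% cells (-0.11) than to young 20% cells (0.51). FOS read 0.86, 0.81 and 0.03 on the old 3% arrays and 2.32, 2.70 and 2.66 on the young 20% arrays (3.97-fold lower, adjusted p = 1.79e-05), and FOSB fell 3.23-fold. The zinc finger factors EGR3 and EGR1 fell 7.28-fold and 2.08-fold, the mRNA decay factor ZFP36 4.42-fold, and DUSP5, a phosphatase that limits ERK, 3.22-fold. The members that rose were the nuclear receptors NR4A2, 5.32-fold, and NR4A3, 1.49-fold. NR4A2 read 2.16, 1.85 and 1.56 in old 3% cells, against -0.65, -0.56 and -0.45 in young 20% cells.

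Matrix genes other than collagens were lower, 19 of 39 measured, while 4 were higher; the median was -0.36. MFAP4, a protein of elastic microfibrils, read -0.36, -0.23 and -0.88 on the old 3% arrays, against 2.12, 2.59 and 2.04 on the young 20% arrays (6.69-fold lower, adjusted p = 8.21e-07). TNC, tenascin C of wounds and developing tissue, fell 4.08-fold, the proteoglycans BGN and LUM 2.71-fold and 2.52-fold, and LTBP2, which binds microfibrils, 2.53-fold. POSTN, periostin, fell by 1.91 ± 0.10, with changes between -3.66 and -0.59 over its 4 probe sets. The 4 that rose were the proteoglycan VCAN (1.19 ± 0.10), the basement membrane protein NID2 (0.77 ± 0.14), CTHRC1 (0.39 ± 0.09) and ECM1 (0.36 ± 0.09, not called without young 20% array 3, adjusted p = 0.0691).

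Contractile genes of the myofibroblast were lower or not called: 11 of 18 fell and none rose, at an adjusted or an unadjusted p under 0.05 in limma, with a median of -0.53. TAGLN, an actin-binding protein of smooth muscle, read -0.54, -0.58 and -0.88 in old 3% cells and 0.36, 0.61 and 0.30 in young 20% cells (2.13-fold lower). LMOD1, which nucleates actin in smooth muscle, fell 2.19-fold, the smooth muscle actins ACTG2 and ACTA2 1.54-fold and 1.44-fold, and the myosin kinase MYLK 1.85-fold. Probe sets of ACTG2 gave changes between -1.20 and -0.05, those of ACTA2 between -0.93 and -0.09, and those of MYLK between -1.90 and -0.14. SYNPO2, an actin-bundling protein, fell by 1.79 ± 0.11 as a mean of 7 probe sets that ran between -3.63 and 0.06. On the senescent arrays the list mean was -0.12, -0.05 and -0.23 for the contractile genes and -0.13, -0.03 and -0.11 for the matrix genes, nearer to old 3% cells (-0.11, -0.12 and -0.27, and -0.07, -0.10 and -0.17) than to young 20% cells (0.33, 0.41 and 0.39, and 0.34, 0.43 and 0.28).

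Most collagens were not called. Of 24 collagen genes, 4 were higher (COL5A3, COL4A1, COL13A1 and COL5A2) and 2 lower (COL14A1 and COL16A1), with a median of 0.12. COL13A1 was not called without old 3% array 1 or 2 or young 20% array 1 or 2, adjusted p between 0.0583 and 0.0899. COL1A1, the main chain of type I collagen, read 0.04, 0.17 and 0.11 in old 3% cells and -0.11, -0.11 and -0.06 in young 20% cells (0.20 ± 0.10, adjusted p = 0.259). COL14A1 fell by 1.76 ± 0.13, with changes between -3.97 and 0.13 over its 4 probe sets. The enzymes that modify collagen ran the other way from the matrix genes: 6 of 18 were higher and 1 lower, with a median of 0.33. LOX, which crosslinks collagen, rose 2.03-fold, LOXL2 1.48-fold, the lysyl hydroxylase PLOD2 1.89-fold and the prolyl hydroxylase subunit P4HA2 1.49-fold. Probe sets of LOXL2 gave changes between -0.126 and 1.191, and those of P4HA2 between 0.100 and 1.155. PCOLCE, which speeds the trimming of procollagen, fell 1.76-fold. LOX, PLOD2 and P4HA2 are also in the list of hypoxia targets.

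Proteases divided. Of 26 metalloproteases and their inhibitors, 3 were higher and 6 lower, with a median of -0.02. ADAMTS1, which cleaves proteoglycans, fell 3.48-fold. Its relative ADAMTS5 rose 2.08-fold, as the mean of 4 probe sets whose changes ran between 0.10 and 1.52. MMP14, a collagenase bound to the membrane, rose by 0.48 (not called without young 20% array 1, adjusted p = 0.0549). The last of the 3, MMP19, rose by 0.42 (not called without old 3% array 1 or 2 or young 20% array 1 or 3, adjusted p between 0.0738 and 0.108). The stromelysin MMP3 fell by 0.66 (SE 0.19, adjusted p = 0.039, not called without old 3% array 1, 2 or 3 or young 20% array 1 or 2, adjusted p between 0.0652 and 0.178), and the inhibitors TIMP1 and TIMP3 by 0.62 and 0.54. The collagenase MMP1 was not called (-0.20 ± 0.12, adjusted p = 0.423, 95% interval -0.46 to 0.06). Among 9 genes of the plasminogen system and related serpins, SERPINB7 rose 5.00-fold. SERPINF1, the antiangiogenic factor PEDF, fell 13.7-fold, the urokinase gene PLAU 2.33-fold and its inhibitor SERPINE2 1.81-fold.

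Growth factor genes were lower in 10 of 32 and higher in 3, with a median of -0.18. The binding proteins that hold insulin-like growth factors moved both ways: IGFBP2 fell 5.04-fold, IGFBP5 2.85-fold and IGFBP4 2.02-fold, while IGFBP3 and IGFBP6 rose 1.95-fold and 1.42-fold, and the receptor IGF1R rose 1.58-fold. Over the 6 probe sets of IGFBP5 the changes ran between -1.99 and -0.39. IGFBP3 read -0.06, -0.06 and -0.09 in old 3% cells, against -0.99, -1.20 and -0.92 in young 20% cells. FGF5 fell 3.13-fold, and PDGFD and the epidermal growth factor receptor ligand HBEGF fell by 1.42 and 1.59 as means of probe sets that disagreed, PDGFD between -2.62 and -0.22 and HBEGF between -3.46 and 0.13.

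Genes of the unfolded protein response and of ATF4, the factor that supplies amino acids under stress, were higher in 19 of 33 and lower in 2 (ALDH18A1 and DNAJB9), with a median of 0.47. The largest rise was that of PSAT1, an enzyme of serine synthesis, which read 0.34, 0.18 and 0.18 on the old 3% arrays, against -1.59, -1.41 and -1.21 on the young 20% arrays (3.12-fold), and PHGDH of the same pathway rose 2.26-fold. The mitochondrial folate enzyme MTHFD2 rose 1.90-fold, the glutathione-degrading CHAC1 1.91-fold, and the lipoprotein receptor VLDLR and the glycoprotein STC2, which are also hypoxia targets, 2.68-fold and 2.02-fold.

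Genes of sterol and lipid synthesis were lower or not called. Of 22 genes, 10 fell and none rose (2 were higher at an unadjusted p under 0.05), with a median of -0.36. The sterol carrier STARD4 fell 4.23-fold, the sterol oxidase MSMO1 4.04-fold, HMGCS1, which makes the precursor of mevalonate, 3.01-fold, and the desaturase SC5D and the dehydrogenase NSDHL 1.67-fold each. INSIG1, which senses sterols and is itself a target of the sterol regulators, fell by 1.11, with changes between -1.95 and -0.29 over its 3 probe sets.

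Of 27 targets of NRF2, the factor that answers oxidants, 11 fell and 1, the cystine transporter SLC7A11, rose (0.46 ± 0.12, not called without old 3% array 1 or young 20% array 1 or 2, adjusted p between 0.101 and 0.106); the median was -0.24. The epoxide hydrolase EPHX1 fell 1.98-fold, SRXN1, which repairs peroxiredoxins, 1.86-fold, the quinone reductase NQO1 1.61-fold and the ferritin light chain FTL 1.65-fold. The glutathione transferases GSTM1 and GSTM2 fell by 0.76 and 0.86 and the reductase AKR1C2 by 1.08; these families are closely related, so single members are uncertain. Changes ran between -1.721 and 0.105 over the 3 probe sets of AKR1C2. Heme oxygenase HMOX1 was not called (0.07 ± 0.10, adjusted p = 0.854, 95% interval -0.15 to 0.28). Among 19 other antioxidant genes, the manganese superoxide dismutase SOD2 read -0.30, -0.31 and -0.19 in old 3% cells and 0.55, 0.50 and 0.49 in young 20% cells (1.72-fold lower, adjusted p = 3.9e-05).

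Signalling genes of development changed singly. VANGL2, which orients cells in a sheet, read -2.28, -2.50 and -2.60 on the old 3% arrays and 1.04, 1.07 and 1.02 on the young 20% arrays (11.3-fold lower). DNER, a ligand of Notch, read 1.91, 1.57 and 2.03 in old 3% cells, against -0.29, -0.96 and -1.59 in young 20% cells (6.88-fold higher, adjusted p = 8.21e-06), and the Notch and BMP target HEY1 rose 2.13-fold. Of 28 Wnt and Notch genes, 4 were higher and 4 lower (median -0.02); of 23 TGF-beta and BMP targets, 6 were higher and 2 lower (median 0.18). ID3 and ID4, inhibitors of differentiation induced by BMP, rose by 0.80 and 0.82, with changes between 0.12 and 1.77 over the 5 probe sets of ID4. ID1 read 1.29, 0.81 and 0.57 in old 3% cells and 0.03, 0.20 and -0.03 in young 20% cells, a difference of 0.82 ± 0.28 that was not called (adjusted p = 0.0769). The BMP antagonist NOG rose by 0.78 ± 0.21 (not called without old 3% array 3 or young 20% array 1 or 3, adjusted p between 0.0767 and 0.102).

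Several of the largest changes fell outside these lists. CD24, a small glycoprotein of the cell surface, read 2.31, 2.21 and 2.09 on the old 3% arrays, against -0.90, -0.92 and -1.49 on the young 20% arrays (9.90-fold higher), as the mean of 6 probe sets whose changes ran between 0.52 and 4.88. CYTL1, a secreted cytokine-like protein, read -1.09, -0.51 and -0.70 in old 3% cells and 3.47, 3.31 and 3.52 in young 20% cells (18.4-fold lower). The urea transporter SLC14A1 read -3.18, -3.24 and -2.88 in old 3% cells and 0.51, 0.52 and 0.37 in young 20% cells (11.9-fold lower). RASGRP1, an activator of Ras, was 11.3-fold lower, the chemoattractant RARRES2 9.09-fold, the membrane protein TMEM176A 9.97-fold, the secreted OLFML2A 8.59-fold and the ubiquitin ligase RNF128 8.18-fold. KRTAP4-12 and KRTAP1-5, keratin-associated proteins of hair, were 14.0-fold and 9.14-fold lower; they belong to a family of near-identical genes, and the probe sets may read several of them.

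The young 3% arrays, at the passage of the young 20% cells and the oxygen of the old cells, put each change in 2 parts. Young 3% minus young 20% cells called 980 genes higher (4.96%) and 1353 lower (6.84%); old 3% minus young 3% cells called 194 higher (0.981%) and 150 lower (0.759%). These comparisons share arrays with old 3% minus young 20% and with each other, so their values are given side by side and are not independent of it. Young 3% and young 20% cells also differ by incubator.

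In 28 of the 39 lists the median change was farther from 0 for young 3% minus young 20% than for old 3% minus young 3% cells, an order that was not tested. Of the 54 mitosis genes, 49 were higher in young 3% than in young 20% cells (median 1.82), and 6 were higher in old 3% than in young 3% cells (median 0.37). At an unadjusted p under 0.05 in limma, 31 of them were higher and 0 lower in old 3% than in young 3% cells. The share of all genes at that threshold is not given here. Of the 36 hypoxia targets, 26 were higher and 1 lower in young 3% than in young 20% cells (median 0.68), and 1 was higher in old 3% than in young 3% cells (median 0.02). For that second step, 3 targets were higher and 3 lower at an unadjusted p under 0.05 in limma.

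The other groups that rose in old 3% cells were mostly called between young 3% and young 20% cells. Over all genes, 4.96% were called higher in that step and 0.981% between old 3% and young 3% cells. The counts are by limma, and beside a count of 0 those at an unadjusted p under 0.05 are given, higher ones first. The shares over all genes are at the adjusted p and do not apply to the unadjusted counts. Of the 43 replication genes, 31 were higher and 1 lower in young 3% than in young 20% cells (median 0.87), with 0 higher and 3 lower in old 3% than in young 3% cells (median -0.13; 0 and 13 at an unadjusted p). Of the 18 recombination genes, 12 were higher and 0 lower in young 3% than in young 20% cells (median 0.79; 14 and 0 at an unadjusted p), with 0 higher and 0 lower in old 3% than in young 3% cells (median -0.01; 0 and 2 at an unadjusted p). Of the 25 chromatin and lamina genes, 15 were higher and 0 lower in young 3% than in young 20% cells (median 0.58; 20 and 1 at an unadjusted p), with 0 higher and 1 lower in old 3% than in young 3% cells (median 0.01; 2 and 2 at an unadjusted p). Of the 18 glycolysis genes, 14 were higher and 1 lower in young 3% than in young 20% cells (median 0.57), with 0 higher and 0 lower in old 3% than in young 3% cells (median -0.10; 0 and 1 at an unadjusted p). Of the 33 stress and ATF4 genes, 13 were higher and 1 lower in young 3% than in young 20% cells (median 0.24), with 1 higher and 1 lower in old 3% than in young 3% cells (median 0.09).

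The groups that fell had fewer members called lower between old 3% and young 3% cells than between young 3% and young 20% cells. So did all genes, at 0.759% and 6.84% called lower, so this order is not particular to these groups. For the 32 inflammatory factors the counts were 1 higher and 11 lower in young 3% than in young 20% cells (median -0.22), and 3 higher and 6 lower in old 3% than in young 3% cells (median -0.17). For the 29 immediate-early genes the counts were 3 higher and 14 lower in young 3% than in young 20% cells (median -0.44), and 3 higher and 6 lower in old 3% than in young 3% cells (median -0.12). For the 39 matrix genes the counts were 5 higher and 17 lower in young 3% than in young 20% cells (median -0.25), and 2 higher and 7 lower in old 3% than in young 3% cells (median -0.05). For the 18 contractile genes the counts were 0 higher and 8 lower in young 3% than in young 20% cells (median -0.41; 0 and 12 at an unadjusted p), and 0 higher and 2 lower in old 3% than in young 3% cells (median 0.01; 0 and 2 at an unadjusted p). For the 22 sterol and lipid genes the counts were 0 higher and 8 lower in young 3% than in young 20% cells (median -0.32; 0 and 11 at an unadjusted p), and 0 higher and 1 lower in old 3% than in young 3% cells (median 0.02; 1 and 4 at an unadjusted p). For the 27 NRF2 targets the counts were 0 higher and 12 lower in young 3% than in young 20% cells (median -0.32; 0 and 14 at an unadjusted p), and 1 higher and 0 lower in old 3% than in young 3% cells (median 0.07; 5 and 1 at an unadjusted p).

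LINC01116 was 4.52 higher in young 3% than in young 20% cells and differed by 0.24 between old 3% and young 3% cells (adjusted p = 0.419). DDIT4 gave 2.66 and 0.20 for the same steps, KIF20A 2.90 and 0.38, and TMEM176A -3.29 and -0.03. For these genes the second step was not called.

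Other genes moved in both steps. VCAM1 read -1.37, -1.03 and -0.93 on the young 3% arrays, between old 3% and young 20% cells, with differences of -3.40 for young 3% minus young 20% and -1.96 for old 3% minus young 3% (adjusted p = 6.5e-06). CCL2 gave -2.76 and -1.75, PTX3 -3.51 and -1.10, VANGL2 -1.43 and -2.07, and RASGRP1 -2.21 and -1.29, all called in both steps. CD24 was called in both as well, at 2.08 and 1.22.

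For a few genes the larger difference lay between old 3% and young 3% cells. SLC14A1 differed by -0.59 between young 3% and young 20% cells and by -2.98 between old 3% and young 3% cells (adjusted p = 3.52e-08). IL24 read 2.13, 2.27 and 1.78 on the old 3% arrays, -0.12, -0.21 and 0.30 on the young 3% arrays and -0.30, -0.03 and -0.07 on the young 20% arrays, and differed by 2.07 between old 3% and young 3% cells (adjusted p = 1.51e-05). DNER differed by 0.47 (adjusted p = 0.305) and 2.31 (adjusted p = 0.000369) in these steps.

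Some genes moved in opposite directions in these steps. For MCM6, CXCL8 and MMP1, old 3% and young 20% cells were closer to each other than either was to young 3% cells. MCM6 was 0.78 higher in young 3% than in young 20% cells (adjusted p = 0.000795), and old 3% minus young 3% was -0.79 (adjusted p = 0.00431). CXCL8 gave -1.22 (adjusted p = 8.88e-06) and 1.01 (adjusted p = 0.000323), and MMP1 -0.91 (adjusted p = 0.000229) and 0.71 (adjusted p = 0.008). ADAMTS5 read 1.30, 0.80 and 0.89 on the old 3% arrays, -0.84, -0.99 and -0.76 on the young 3% arrays and -0.09, -0.23 and 0.15 on the young 20% arrays, with both other groups above young 3% cells and old 3% cells the highest. A gene called in neither or in only 1 of the steps is not shown to differ between them, since the difference of the steps was not tested.

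**Figure D5:**
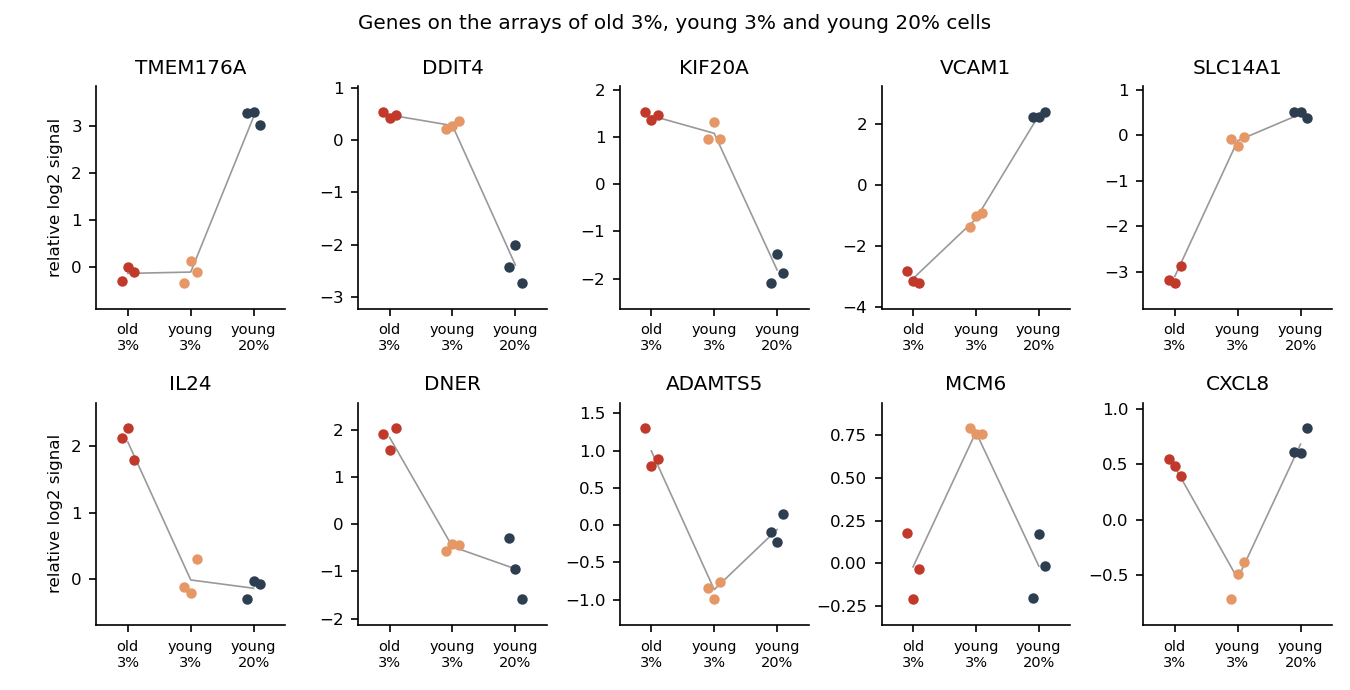
Relative log2 signal of 10 genes on the arrays of old 3%, young 3% and young 20% cells (3 points each, lines through the group means; vertical scales differ). TMEM176A, DDIT4 and KIF20A change between young 3% and young 20% cells, SLC14A1, IL24 and DNER between old 3% and young 3% cells, VCAM1 in both steps, and MCM6 and CXCL8 in opposite directions.

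Calls among markers of other cell types are given beside the shares over all genes, 6.46% higher and 6.80% lower. Of 15 epithelial markers 1 was called, KRT18, which was lower (-0.76 ± 0.15). None of 12 endothelial and none of 13 immune markers was called in limma; at an unadjusted p under 0.05, 1 endothelial marker was higher and no immune marker differed. Of 8 mesothelial markers, BNC1 was lower (-0.49 ± 0.12, not called without old 3% array 2 or young 20% array 1 or 2, adjusted p between 0.0547 and 0.072). Of 10 pericyte and smooth muscle markers, CSPG4 was higher and RGS5 lower (0.93 and -1.06), with the probe sets of RGS5 between -3.51 and 0.15. The mean of each of these lists on single arrays ran from -0.18 to 0.16 over the old 3% and young 20% arrays. Among 15 fibroblast markers, LUM, DCN and the surface antigen THY1 were lower (THY1 -1.07 ± 0.11) and S100A4 higher (0.55 ± 0.14, not called without old 3% array 1 or 2 or young 20% array 1 or 2, adjusted p between 0.0667 and 0.117). Changes ran between -2.37 and -0.29 over the 7 probe sets of DCN. Control probes at both ends of a transcript compare RNA quality between arrays. Each control probe set is centred too, so a difference near 0 is the middle of the 12 arrays and does not show intact RNA. For ACTB, the centred signal at the 3' end less that at the 5' end was -0.22 to 0.02 on the old 3% arrays and -0.19 to 0.25 on the young 20% arrays. For GAPDH it was -0.07 to -0.01 on the old 3% arrays and -0.04 to 0.27 on the young 20% arrays. Young 3% array 2, which enters both steps given above, had 0.706 for ACTB and 0.355 for GAPDH, the highest of the 12 arrays. The part of RNA quality in the results was not tested.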

How the data were processed

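RNA of Imr90 cells was measured on 12 Affymetrix arrays. The deposited values are log2 signals that the authors made with RMA, per the submitters' processing notes; RMA's version and the base of the logarithm are not given in the sources used here, and log2 is assumed from RMA. Every probe set has a median of 0 over the 12 arrays, so the values are centred and hold no absolute level or signal over background. Of 54675 probe sets, 41091 name 1 gene, and those of a gene were averaged, giving 19775 genes; probe sets naming several genes (1801) or none (11721) and 62 controls were left out. Ranges over probe sets are given for some genes, and where none is given the probe sets of a gene may still disagree. Symbols are those of RefSeq, matched by Entrez identifier for 41037 probe sets.

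The test was limma (version 3.58.1, R 4.3.3; lmFit, then eBayes) on 1 mean per group over all 12 arrays, two-sided, with Benjamini-Hochberg adjustment over all genes and calls at 0.05; the fit was tested on simulated data. Members and the 39 gene lists were chosen with earlier results of these data known. List members with no probe set of their own were not analysed here. Genes named are the 15 largest rises and falls among called genes without overlap, up to 6 members with the largest change per list, and a panel of 26; names outside this rule were chosen after their values were seen, to fill counts of 5 or fewer (INCENP, PALB2, HK2, IL24, NR4A3, IFIT3, VCAN, NID2, CTHRC1, ECM1, COL5A2, MMP19, IGF1R, IGFBP6, SLC7A11, ALDH18A1, DNAJB9, PSG1), or beside a relative (EPAS1 beside HIF1A). Alternatives to the moderation, the averaging of probe sets, the normalization, the arrays in the fit, their weights, a replicate block and each array left out are given in the closing section.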

Additional observations from a re-analysis of the deposited data

How the results depend on the processing

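With array weights, which ran from 0.374 to 5.69 over the 12 arrays, 2808 genes were called higher and 2359 lower, against 1277 and 1345 with equal weights. Without averaging, 2339 probe sets were called higher and 2567 lower; the unit there is the probe set, of which a gene may have several. The same-numbered arrays of old 3% and young 20% cells did not deviate together (correlations of their deviations -0.168, -0.398 and -0.517), so the numbers are not taken to pair the samples; with the replicate number as a replicate block, 1192 genes were higher and 1286 lower. Leaving out each of the 6 arrays in turn gave between 940 and 1357 genes higher and between 953 and 1312 lower. Under the other alternatives (an intensity trend with robust moderation, the probe set with the largest SD, quantile normalization again, centring of each array, the 2 groups alone, and a filter on flat genes), both counts and the member counts of the 14 lists tried stayed within 1.5 times those reported. The intensity trend used means of centred values and carries no information on intensity. Of 196 called genes named in the text, 175 kept their call and direction under every alternative run on genes; the other 21 lost the call when at least 1 array was left out, as stated beside them, and 12 of these lost it under another alternative as well. IL6, at 0.009 as reported and never called, turned to -0.023 after quantile normalization, -0.005 after centring, and between -0.048 and 0.056 without 1 array. MCM6, at -0.004 and not called except at the edge of the threshold with the probe set of largest SD (adjusted p = 0.05), turned to 0.046 with array weights and ranged between -0.105 and 0.091 without 1 array. ID1 was called with the 2 groups alone, with array weights and without flat genes (adjusted p = 0.0158, 0.00897 and 0.0446), and COL1A1 and HIF1A with array weights (adjusted p = 0.0276 and 0.0206). With array weights, 4 named genes that were not called as reported gained a call, ID1, COL1A1 and HIF1A among them. EPAS1 was called with its most variable probe set (adjusted p = 0.00591). Signal over background is not known here, so dim genes could not be set apart, and 3 arrays per group limit the precision: the median standard error over all genes was 0.128, and the smallest change called was 0.262 on the log2 scale.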

Other observations

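Transcription factors of the lung mesenchyme were higher in 5 of 25 cases and lower in none by limma (7 were higher and 3 lower at an unadjusted p under 0.05), with a median change of 0.12, against 0.02 for all genes. TCF21, a factor of lung and kidney stroma, read 1.04, 0.55 and 0.74 on the old 3% arrays, 0.35, -0.24 and 0.26 on the young 3% arrays and -0.61, -0.53 and -0.58 on the young 20% arrays (2.55-fold higher in old 3% than in young 20% cells, adjusted p = 4.52e-05). The homeobox gene HOXA2 rose 2.14-fold (not called without young 20% array 3, adjusted p = 0.0505) and the T-box factor TBX5 by 0.52 on the log2 scale. Changes ran between 0.05 and 1.19 over the 4 probe sets of TBX5. The pregnancy-specific glycoproteins, which the placenta secretes, divided: of 9 measured, PSG3, PSG5, PSG9 and PSG6 were higher (0.93, 0.89, 0.64 and 0.48) and PSG4, PSG7 and PSG1 lower (-0.79, -0.55 and -0.34); PSG1 was not called without old 3% array 1, 2 or 3 or young 20% array 1, 2 or 3, adjusted p between 0.0585 and 0.144. These genes are near-identical copies whose probe sets may read each other, so single members are uncertain; the list mean was -0.25, -0.36 and -0.28 on the old 3% arrays, 0.87, 0.93 and 0.90 on the senescent arrays and -0.31, -0.47 and -0.61 on the young 20% arrays.

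Heat shock genes were lower in 4 of 16 cases and higher in none by limma (6 lower and none higher at an unadjusted p under 0.05), with a median of -0.20. The small chaperone CRYAB fell 1.92-fold (not called without old 3% array 2 or 3 or young 20% array 1, 2 or 3, adjusted p between 0.0835 and 0.132), HSPH1, which recharges HSP70, 1.68-fold, and the J-proteins DNAJB4 and DNAJA1 2.02-fold and 1.53-fold. The 2 probe sets of DNAJA1 gave -1.13 and -0.09. Of 8 metallothioneins, MT1F, MT1E, MT1H and MT2A were higher, by 0.45, 0.45, 0.43 and 0.38, and none was lower by limma or at an unadjusted p under 0.05; each of the 4 lost its call without old 3% array 2, and likewise without young 20% array 2 (adjusted p between 0.0712 and 0.204), and this family too is closely related. Of 36 genes of the respiratory chain, 3 were higher and 2 lower, and of 38 lysosomal genes 3 were higher and 3 lower (medians 0.04 and 0.00), shares near those over all genes, 6.46% higher and 6.80% lower. NDUFV2 of complex I rose by 0.64 ± 0.09, and COX7B of complex IV fell by 0.96 (SE 0.11) with probe sets between -2.04 and 0.12. The lysosomal genes called include the cathepsin CTSO, 2.93-fold lower, and the galactosidase GLA, 1.65-fold higher (not called without young 20% array 2, adjusted p = 0.0517).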
